A study of Mus musculus with 9 samples.

Results

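The 10 genes described here handle iron in mouse fat cell cultures that were grown with sodium alginate, the salt of a seaweed polysaccharide. They are Fth1, Ftl1, Tfrc, Trf, Slc40a1, Slc11a2, Hmox1, Ireb2, Cp and Steap4, chosen by name from a table of 41761 genes. For 9 of the 10 a row carried the symbol. Ftl1 had no row of that name and was taken from the protein-coding row that the table itself matches to the mouse ferritin light chain protein, and all 10 of the 10 protein-coding genes around that row were neighbours of Ftl1 in the RefSeq annotation. All 10 genes reached 1 FPKM (fragments per kilobase of gene length, scaled for library depth) in at least 3 of the 9 libraries, and so entered the tests together with 12635 genes in all.

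The cells were stromal cells of inguinal white fat from wild-type C57BL/6J mice, primary cells and not a cell line, driven towards white adipocytes after contact inhibition. Sodium alginate was present throughout at 0, 50 or 100 µM, with 3 libraries at each dose. Every culture, the 0 µM controls included, received insulin (1 µg/ml), dexamethasone (1 µM) and IBMX (0.5 mM), and was changed to a maintenance medium on day 2. The treatment protocol also lists rosiglitazone (1 µM), an agonist of the fat cell regulator PPARγ, at all doses, which the design text does not. Titles give day 6, the protocol collection on day 7. The dose of the 100 µM libraries follows their treatment label and library name, since their titles read 50 µM. The labels do not state whether libraries of one dose are separate cultures or mice, and the p-values therefore reflect a spread between libraries that may be only technical.

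Iron enters most cells bound to transferrin, the plasma carrier encoded by Trf, through the transferrin receptor Tfrc. It is reduced in the endosome by a metalloreductase of the Steap family and released into the cytosol by the transporter Slc11a2. Iron that is not used is stored in ferritin, a hollow shell of heavy chains (Fth1), which oxidise the metal, and light chains (Ftl1), which help to mineralise it. Ferroportin, encoded by Slc40a1, is the cellular iron exporter, and ceruloplasmin (Cp) is a copper ferroxidase that oxidises exported iron for loading onto transferrin. Hmox1, haem oxygenase, frees iron from haem. The iron regulatory proteins, one of them encoded by Ireb2, bind hairpins in target mRNAs when iron is low. Binding in a 5′ untranslated region blocks translation and binding in a 3′ untranslated region protects the mRNA from decay. Fat cells need iron for the iron-sulphur clusters and haem of their mitochondria.

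Because the storage, uptake and export genes are the classic carriers of such hairpins, called iron-responsive elements, their letters are shown here before the values. All protein-coding transcripts of the basic GENCODE M21 annotation (mouse build GRCm38) were searched in the sense direction only, without regard to other motifs, for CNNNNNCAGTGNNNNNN, with the 5 bases before and the 5 bases after the loop able to pair as Watson-Crick or G-U pairs. In the sequences, capitals mark the unpaired C and the CAGTGN loop, and each is written 5′ to 3′ as DNA on the strand of the gene.
Fth1, 5′ untranslated region, chr19:9982732-9982760, plus strand: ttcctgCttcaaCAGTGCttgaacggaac
Ftl1, 5′ untranslated region, chr7:45459779-45459807, minus strand: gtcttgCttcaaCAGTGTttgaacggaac
Slc40a1, 5′ untranslated region, chr1:45925465-45925493, minus strand: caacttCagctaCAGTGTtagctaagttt
Tfrc, 3′ untranslated region, chr16:32631219-32631247, plus strand: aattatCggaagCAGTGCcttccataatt
Tfrc, 3′ untranslated region, chr16:32631598-32631626, plus strand: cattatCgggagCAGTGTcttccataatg
Tfrc, 3′ untranslated region, chr16:32631663-32631691, plus strand: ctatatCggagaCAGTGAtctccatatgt
Tfrc, 3′ untranslated region, chr16:32631710-32631738, plus strand: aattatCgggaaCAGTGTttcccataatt
The 2 ferritin mRNAs and the ferroportin mRNA each held 1 match in the 5′ untranslated region, and Tfrc held 4 in the 3′ untranslated region. Among 21875 protein-coding genes, 288 (1.32%) held a match anywhere in the mRNA, 28 (0.128%) in the 5′ untranslated region and 127 (0.581%) in the 3′ untranslated region. No match was found in the transcripts of Trf, Slc11a2, Hmox1, Ireb2, Cp or Steap4, which says only that these letters are not there. An element of another form would be missed by this search. The mRNA of Epas1, known for an iron-responsive element, held no match either. A match is a description of sequence. mRNA levels do not report the translational arm of this control.

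At 100 µM alginate the mRNAs of ferritin heavy chain, ferroportin, ceruloplasmin and haem oxygenase were lower than without alginate, by between 20.6% and 32.6% of the mean, and those of the transferrin receptor and the metalloreductase Steap4 were higher, by 25.5% and 28.0%. Ferritin light chain, transferrin, Slc11a2 and Ireb2 did not pass the test. In the limma fit over 12635 genes, with a Benjamini-Hochberg adjusted p below 0.05 as the threshold, 2 of the 10 genes were thus higher and 4 lower at 100 µM than at 0 µM, against 18.3% of all tested genes higher and 15.6% lower. The 6 of 10 has to be read against these shares. The median log2 difference was 0.02 over the 10 genes and 0.01 over all genes tested. Between 100 and 50 µM the same 2 genes were higher and the same 4 lower, against 13.2% and 12.0% of all genes. These comparisons share libraries and are not independent of each other.

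At 50 µM none of the 10 genes differed from 0 µM in either direction in limma. Of the 10, 0 had an unadjusted limma p below 0.05, against 1814 of all 12635 genes. With voom, limma's weighting for counts, 0 of the 10 passed the threshold, against 144 of all genes higher and 193 lower. With voom 1 of the 10 had an unadjusted p below 0.05. Over all genes the share past the adjusted threshold in limma was small too, with 0.356% higher and 0.435% lower. No gene of the table was called when the libraries of only these 2 doses were fitted.

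**Figure D1:**
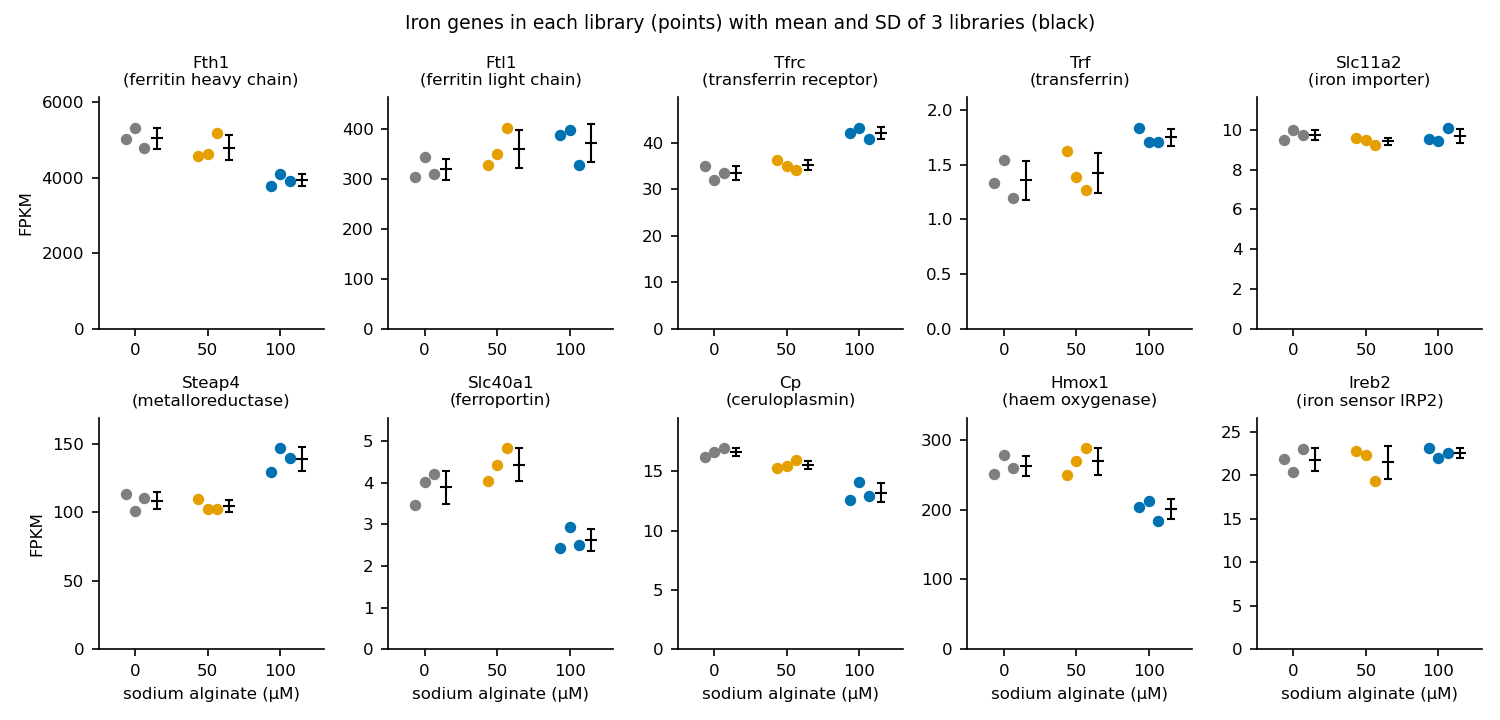
FPKM of the 10 iron genes (vertical axes from 0, each panel with its own scale) in each library at 0, 50 and 100 µM sodium alginate, with the mean and SD of 3 libraries in black. The 100 µM libraries of Fth1, Slc40a1, Cp and Hmox1 lie below, and those of Tfrc, Steap4 and Trf above, all libraries of both other doses. The share of all genes separated in this way was not counted.

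Fth1 (chromosome 19, 7609291 to 7611680, plus strand, in the coordinates of the C57BL/6NJ strain that the table uses for all genes) was the most abundant mRNA of the whole table per length in all 9 libraries, rank 1 of 41761, and took between 0.320% and 0.474% of the reads of a library. Its level was 5041, 5333 and 4781 FPKM in the 3 libraries at 0 µM, 4578, 4636 and 5195 at 50 µM, and 3782, 4112 and 3913 at 100 µM. Every 100 µM library was thus below every library of both other doses, while the 0 and 50 µM libraries overlapped. The log2 difference of 100 against 0 µM was -0.36 (SE 0.07, limma adjusted p = 0.00446) and that of 100 against 50 µM was -0.29 (SE 0.07, adjusted p = 0.0191). The first was not past the threshold with no filter on low values (adjusted p = 0.358), nor with quantile normalization, which by construction gives the top-ranked gene of every library the same value. The second was not past it under either of these, nor without the first 100 µM library (-0.26, adjusted p = 0.0531).

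Ftl1 (chromosome 7, 47990591 to 47995147, minus strand), the partner of Fth1 in the ferritin shell, stood at 305, 344 and 310 FPKM at 0 µM, at 329, 351 and 404 FPKM at 50 µM and at 389, 398 and 328 FPKM at 100 µM. The groups overlapped, and the third 100 µM library lay within the range of the controls. The log2 difference of 100 against 0 µM was 0.21 (95% interval -0.00067 to 0.43, limma adjusted p = 0.116). It passed without the third 100 µM library (0.30, adjusted p = 0.0363) and with voom on rebuilt reads (0.20, adjusted p = 0.0403). The ferritin chains have copies in the genome. The table matched 12 other rows to the heavy chain, 11 of them at 0 in every library, and these held 0.00382% of the heavy chain reads. For the light chain 20 other rows held 0.552% of its reads, most of them in Gm22133, a microRNA row inside Ftl1 with a mean of 16.1 FPKM. How reads that fit several copies were counted is not given in the sources used here, so the levels of both chains are uncertain to that extent.

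The heavy chain fell while the light chain did not, so the ratio of the ferritin mRNAs shifted within each library, a quantity that the scaling of a library cannot change. Fth1 to Ftl1 was 16.5, 15.5 and 15.4 at 0 µM, 13.9, 13.2 and 12.9 at 50 µM and 9.72, 10.3 and 11.9 at 100 µM, a ratio of FPKM values. No group overlapped another, and the 50 µM libraries lay between the ends. At 0, 50 and 100 µM the mean ratio was 15.8 ± 0.600, 13.3 ± 0.543 and 10.7 ± 1.14 (SD, n = 3). The log2 ratio differed by -0.57 at 100 against 0 µM, by -0.25 at 50 against 0 µM and by -0.33 at 100 against 50 µM. Each had p = 0.1 in the two-sided exact permutation test, the smallest p that 3 against 3 libraries allow, so none can pass 0.05. In all, 9 such ratio tests were made, and no adjusted value can pass either.

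**Figure D2:**
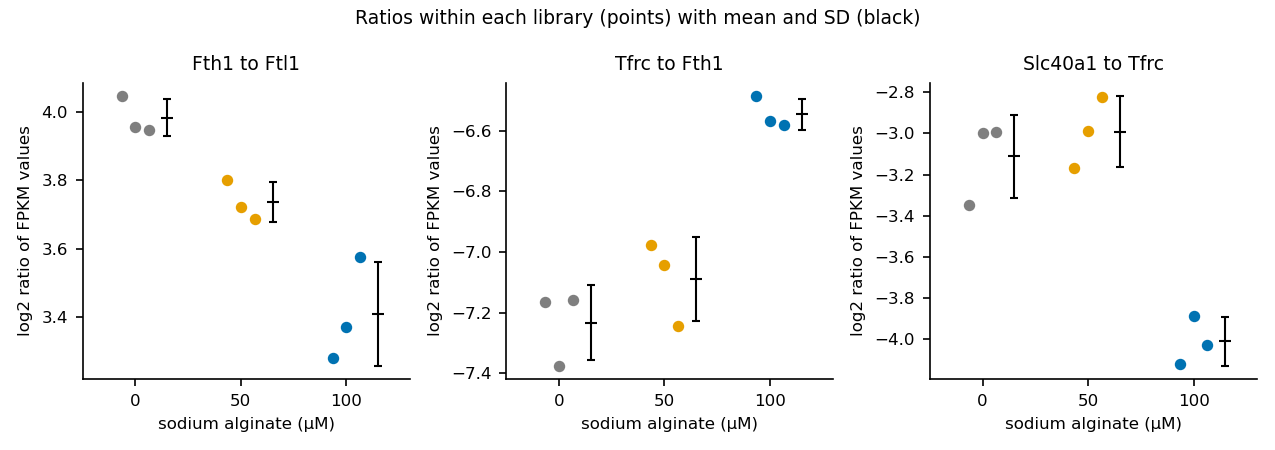
Log2 ratio of FPKM values within each library (vertical axes, not from 0) at each alginate dose, for ferritin heavy to light chain, transferrin receptor to ferritin heavy chain, and ferroportin to transferrin receptor, with the mean and SD of 3 libraries in black. The first falls in both steps without overlap, from 15.8 to 13.3 to 10.7 as a plain ratio, while the other two move between 50 and 100 µM and overlap between 0 and 50 µM.

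Tfrc (chromosome 16, 31348308 to 31375753, plus strand), the receptor that takes up transferrin-bound iron, had 35.1, 32.1 and 33.5 FPKM at 0 µM, 36.3, 35.1 and 34.2 at 50 µM and 42.2, 43.3 and 40.9 at 100 µM. All 3 libraries at 100 µM were above all 6 others. It rose by 0.32 on the log2 scale from 0 to 100 µM (SE 0.05, limma adjusted p = 0.000705) and by 0.25 from 50 to 100 µM (SE 0.05, adjusted p = 0.00409). It was called in 21 of 21 alternative analyses of both comparisons. Tfrc and Fth1 thus differed in opposite directions at 100 µM. The Tfrc to Fth1 log2 ratio was higher by 0.69 at 100 than at 0 µM with no overlap (exact permutation p = 0.1), and by 0.14 at 50 µM with overlap (exact permutation p = 0.3).

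Trf, the iron carrier transferrin, was the least abundant of the 10 mRNAs, with 1.33, 1.55 and 1.19 FPKM at 0 µM, 1.63, 1.39 and 1.27 at 50 µM and 1.84, 1.71 and 1.71 at 100 µM. The 100 µM libraries were the highest without overlap, but as few as 59 reads stood behind a value. The log2 difference of 0.23 (SE 0.10) missed the threshold in limma (adjusted p = 0.104). It passed with quantile normalization (adjusted p = 0.0493) and without the variance trend (adjusted p = 0.0456).

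Steap4 (chromosome 5, 5397689 to 5421287, plus strand), a metalloreductase first described in fat cells as a TNF-responsive protein, had 114, 101 and 110 FPKM at 0 µM, 110, 102 and 102 at 50 µM and 130, 147 and 140 at 100 µM. The 0 and 50 µM libraries shared a range, and all 100 µM libraries lay above it. It rose by 0.35 on the log2 scale from 0 to 100 µM (SE 0.06, limma adjusted p = 0.00200) and by 0.40 from 50 to 100 µM (SE 0.06, adjusted p = 0.00170). It was thus the larger riser of the pair that passed. Slc11a2, the transporter that moves ferrous iron across membranes, was level, with 9.50, 9.99 and 9.75 FPKM at 0 µM, 9.57, 9.48 and 9.22 at 50 µM and 9.54, 9.43 and 10.1 at 100 µM. Its log2 difference at 100 µM had a 95% interval from -0.11 to 0.09.

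Slc40a1 (chromosome 1, 46869053 to 46888658, minus strand), the ferroportin gene, showed the largest differences of the 10 genes in both comparisons with 100 µM. It had 3.46, 4.02 and 4.20 FPKM at 0 µM, 4.04, 4.43 and 4.84 at 50 µM and 2.43, 2.94 and 2.51 at 100 µM, from 338 reads or more. The 50 µM libraries were the highest as a group, within reach of the controls, and the 100 µM libraries were below all others. The log2 difference was -0.43 at 100 against 0 µM (SE 0.09, limma adjusted p = 0.00480) and -0.58 at 100 against 50 µM (SE 0.09, adjusted p = 0.00162). Since 1 is added before the logarithm, this understates the change of a gene at this level, whose mean fell by 32.6% and by 40.8%. Relative to the receptor, the ferroportin mRNA had a mean ratio to Tfrc of 0.116 ± 0.0156 (SD, n = 3) at 0 µM, 0.126 ± 0.0150 at 50 µM and 0.0622 ± 0.00510 at 100 µM. That log2 ratio was lower at 100 µM than at 0 µM by 0.90 and than at 50 µM by 1.02, without overlap (exact permutation p = 0.1 in each).
 
Cp (chromosome 3, 18241816 to 18302448, plus strand), the ferroxidase that acts beside ferroportin, had 16.3, 16.7 and 16.96 FPKM at 0 µM, 15.3, 15.5 and 15.9 at 50 µM and 12.6, 14.1 and 12.9 at 100 µM. It was the only one of the 10 genes whose 3 groups did not overlap in any pair. How many of all tested genes were separated in this way was not counted. The log2 difference was -0.31 at 100 against 0 µM (SE 0.05, limma adjusted p = 0.00116) and -0.22 at 100 against 50 µM (SE 0.05, adjusted p = 0.010), whereas the -0.09 at 50 against 0 µM did not pass (adjusted p = 0.449). Cp overlaps Hps3 on the other strand, a gene with a mean of 2.59 FPKM, and whether reads were counted by strand is not stated.

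Hmox1 (chromosome 8, 78476857 to 78486030, plus strand), the enzyme that opens the haem ring, was high in these cultures, with 251, 278 and 259 FPKM at 0 µM, 250, 270 and 288 at 50 µM and 204, 212 and 184 at 100 µM. The 0 and 50 µM libraries covered the same range and the 100 µM libraries were below it. The log2 difference was -0.39 at 100 against 0 µM (SE 0.07, limma adjusted p = 0.00258) and -0.43 at 100 against 50 µM (SE 0.07, adjusted p = 0.00261). Ireb2, which encodes the iron regulatory protein IRP2 and is itself controlled mainly by protein degradation, had 21.9, 20.4 and 23.0 FPKM at 0 µM, 22.8, 22.4 and 19.3 at 50 µM and 23.1, 22.02 and 22.6 at 100 µM. Its 95% interval at 100 against 0 µM ran from -0.10 to 0.20 on the log2 scale.

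**Figure D3:**
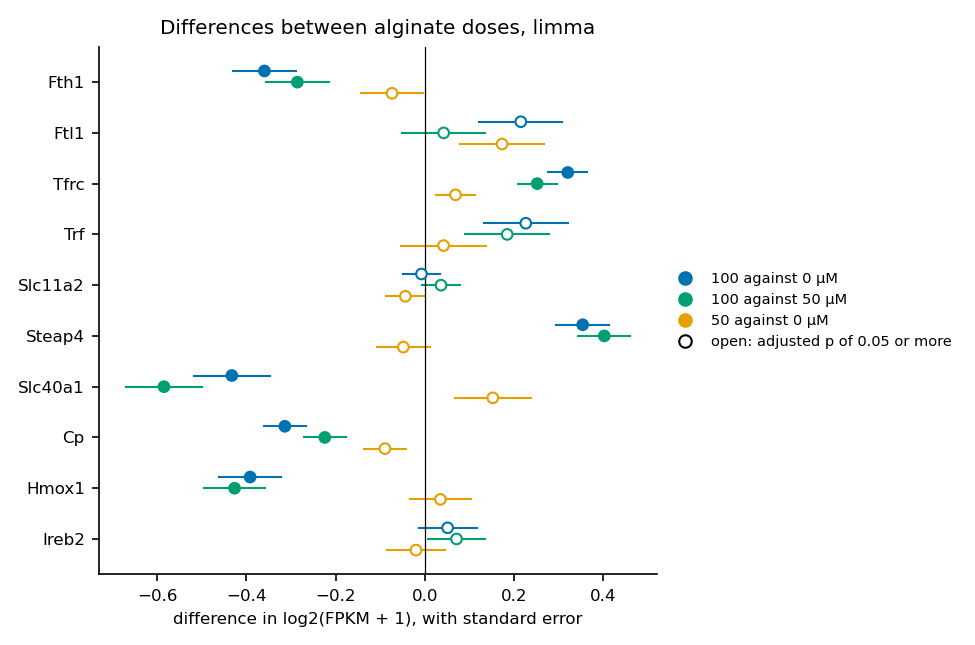
Difference in log2(FPKM + 1) between alginate doses for each of the 10 iron genes, with its standard error from limma. Filled points passed an adjusted p of 0.05, and these are 6 genes in each comparison with 100 µM and 0 genes at 50 against 0 µM.

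Per length, the order of the 10 genes was the same at every dose. From high to low it ran Fth1, Ftl1, Hmox1, Steap4, Tfrc, Ireb2, Cp, Slc11a2, Slc40a1 and Trf, and no neighbours in that order overlapped over the 3 libraries of a dose. The coefficient of variation within a dose, the SD as a percent of the mean, ran from 1.91% to 13.2% over the genes and was widest for Trf.

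The dose dependence was read as a straight line and as the departure of 50 µM from the midpoint of the ends. As a straight line on dose, 2 genes rose (Tfrc and Steap4) and 3 fell (Fth1, Hmox1 and Cp), against 17.1% and 13.1% of all genes. Slc40a1 missed the threshold in this fit (adjusted p = 0.0636), its 50 µM libraries being above rather than between the ends, and passed it with TPM rescaling, with voom, and without the first 0 µM or the third 50 µM library. Steap4 and Hmox1 were no longer called as a line without the second 0 µM library or without any 1 of the 100 µM libraries. The departure of 50 µM from the midpoint of the ends was 0.37 for Slc40a1 (SE 0.08, adjusted p = 0.0527), 0.23 for Hmox1 (SE 0.06, adjusted p = 0.0967) and -0.23 for Steap4 (SE 0.05, adjusted p = 0.0714) on the log2 scale. None of the 10 passed in limma, where 0.989% of all genes passed above and 0.499% below the midpoint. Without adjustment, 4 of the 10 had a limma p below 0.05, against 2281 of all 12635 genes. With voom 3 of the 10 passed, against 442 of all genes above and 254 below the midpoint. Fth1, Cp and Tfrc departed less, by 0.11, 0.07 and -0.09, with adjusted p-values of 0.266 or more.

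Genes that moved like these over the 9 libraries are given as a description, since every comparison of doses enters the correlation. By log2 level, the closest protein-coding gene with a mean of at least 5 FPKM was Rab32 for Fth1 (Pearson r = 0.993), Rps27l for Ftl1 (0.988), Ephx2 for Tfrc (0.993), Mtx1 for Trf (0.967), Eif2b4 for Steap4 (0.991) and Arsb for Slc11a2 (0.916). It was Tmpo for Slc40a1 (0.988), Cpt1c for Cp (0.988), Arhgdib for Hmox1 (0.993) and Secisbp2 for Ireb2 (0.950). The second for Slc40a1 was Ccl6, a myeloid chemokine (0.983), and the third for Ireb2 was Fbxl5 (0.922), whose protein is the iron-sensing adaptor that marks IRP2 for degradation. Among the 10 genes themselves, Slc40a1 and Hmox1 went together (0.95), as did Fth1 and Cp (0.93) and Tfrc and Steap4 (0.93), while Hmox1 and Steap4 went apart (-0.93), as did Fth1 and Tfrc (-0.92).

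The cultures changed in cell state across the same doses. All 15 of 15 mature adipocyte markers were higher at 100 than at 0 µM, and none was at 0. Their summed level ran from 7827 to 7995 FPKM at 0 µM, from 8501 to 8954 at 50 µM and from 11380 to 12104 at 100 µM. Of 12 adipose progenitor markers 10 were tested, 7 were lower and 1 higher (Col15a1), with sums of 891 to 978, 848 to 945 and 576 to 646 FPKM. Col15a1 was not called under quantile, TPM or other rescaling, with voom, no filter, the replicate block or no variance trend. Nor was it called with only the 2 doses fitted, or when any 1 of the 0 or 100 µM libraries or the first 50 µM library was left out. In a culture, fewer cells of a type and less RNA per cell cannot be told apart.

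Ferroportin and haem oxygenase are strongly expressed by macrophages. At 100 µM most tested markers of macrophages, progenitors and endothelial cells were lower, as were Fth1, Slc40a1, Hmox1 and Cp. Of 17 macrophage and myeloid markers 16 had a row and 12 were tested. At 100 against 0 µM 10 were lower and 0 higher in limma, and none was at 0. Their summed level at 0, 50 and 100 µM was 287 to 317, 311 to 315 and 229 to 238 FPKM. The sum was lowest at 100 µM, as were the sums of progenitor and endothelial markers. Endothelial markers were lower in 8 of 9 tested, with sums of 153 to 170, 150 to 164 and 126 to 129 FPKM. Of 11 erythroid markers 7 had a row and 1 was tested, and the 7 summed to 1.10 to 2.02 FPKM. Hba-a1 was listed at 0 in every library, but beta globin is not analysed here and the counting of reads shared between globin copies is not known. Of 11 tested acute-phase and inflammatory genes, which matter here because ceruloplasmin is also an acute-phase protein, 4 were lower (Serpina3n, Il6, Ccl2 and Cxcl5) and 1 higher (Orm1). The part of any of these cell types or states in the values of the 10 genes was not tested.

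The neighbouring steps of iron and haem handling moved in a divided way at 100 against 0 µM. Of genes of mitochondrial iron and iron-sulphur clusters 16 of 29 were higher, and of other genes of uptake, reduction and transport 6 of 15 were lower. These lists and the threshold are those of the same limma fit, against the same 18.3% of genes higher and 15.6% lower.

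In the list of iron uptake, reduction and transport, 15 of 20 genes were tested, 1 was higher and 6 lower, with a median log2 difference of -0.11. Slc39a14, a transporter that takes up iron not bound to transferrin, fell from 24.4 ± 0.899 FPKM (SD, n = 3) at 0 µM to 19.5 ± 0.711 at 50 µM and 15.7 ± 0.878 at 100 µM (limma adjusted p = 4.47e-05 at 100 and 0.0366 at 50 against 0 µM). Steap2 fell from 10.8 ± 0.524 to 6.64 ± 0.358 FPKM (limma adjusted p = 6.29e-05), and Steap3, the endosomal ferrireductase of red cell precursors, from 19.4 ± 0.663 to 15.5 ± 0.876 FPKM (limma adjusted p = 0.00121). These Steap genes thus went the other way from Steap4. Hephl1, a ferroxidase related to Cp, was higher, with 1.51 ± 0.312 FPKM at 0 µM and 2.72 ± 0.222 at 100 µM (limma adjusted p = 0.00254), while Cp was lower. At 50 against 0 µM the lower genes were Steap3 and Slc39a14, a comparison in which no gene of the table was called with only these 2 doses fitted, with the replicate block, without the variance trend, or without the first or second 0 µM or the second 50 µM library.

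Of the list of iron sensing and ferritin handling, 13 of 20 genes were tested, 1 was higher and 3 lower, with a median of -0.09. Aco1, whose protein is a cytosolic aconitase when it holds an iron-sulphur cluster and the iron regulatory protein IRP1 when it does not, rose from 77.8 ± 2.05 FPKM at 0 µM to 116 ± 4.32 at 100 µM (SD, n = 3; limma adjusted p = 2.69e-05). This was in contrast to its relative Ireb2, above, which did not pass. Bmp6, a ligand that reports iron stores to hepatocytes, fell from 7.33 ± 1.00 to 4.20 ± 0.646 FPKM (limma adjusted p = 0.00164). Smad4 and Acvr1, a transducer and a receptor of that pathway, fell by 0.24 each on the log2 scale, and Acvr1 was no longer called without the first or the third 0 µM library or the third 100 µM library.

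Of the 29 genes of mitochondrial iron import and iron-sulphur cluster assembly, all tested, 16 were higher and 1 lower, with a median log2 difference of 0.32, above the median of 0.01 over all genes. Glrx5, which hands on newly made clusters, rose from 137 ± 3.95 FPKM at 0 µM to 205 ± 10.8 at 100 µM (SD, n = 3; limma adjusted p = 3.72e-05). Cisd1, a cluster protein of the outer mitochondrial membrane, rose from 48.1 ± 1.25 to 71.2 ± 4.10 FPKM, Hspa9, the mitochondrial chaperone, from 297 ± 9.22 to 427 ± 17.2 FPKM, and Isca2 from 52.6 ± 2.03 to 78.2 ± 2.31 FPKM. The one lower gene was the iron importer Slc25a37 (-0.29 on the log2 scale). The counts were 13 higher and 2 lower after rescaling to TPM, and 14 and 2 with the authors' factor removed. At 50 against 0 µM 0 of the 29 passed in limma.

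**Figure D4:**
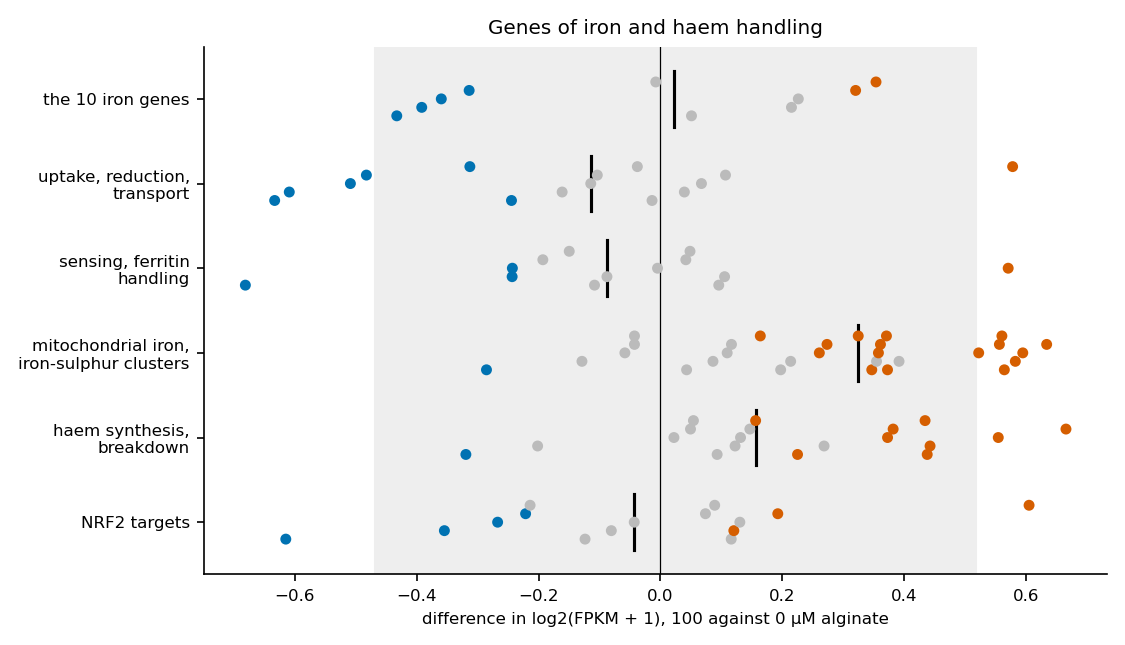
Difference in log2(FPKM + 1) at 100 against 0 µM alginate for each tested gene of the 10 iron genes and of 5 lists, with orange points higher and blue points lower at an adjusted p below 0.05 and grey points not past it. Black lines are list medians, and the shaded band holds the middle range of all 12635 genes from the 5th to the 95th percentile. The mitochondrial list has 16 orange points and 1 blue point.

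Of 24 genes of haem synthesis, transport and breakdown, 19 were tested, 9 were higher and 1 lower, with a median of 0.16. Alas1, the first and rate-limiting enzyme of haem synthesis outside red cells, rose from 76.3 ± 3.02 FPKM at 0 µM to 104 ± 2.26 at 100 µM (SD, n = 3; limma adjusted p = 9.90e-05). The haem-binding Pgrmc2 and Pgrmc1 rose by 0.44 and 0.38 on the log2 scale. Tspo, a mitochondrial outer membrane protein that binds porphyrins, was higher already at 50 µM (121 ± 1.36 against 93.4 ± 0.837 FPKM, limma adjusted p = 0.0452) and was 138 ± 14.8 FPKM at 100 µM. The call at 50 µM ends under the same settings as those of Steap3 and Slc39a14. The lower gene was Abcg2, a porphyrin exporter (-0.32 on the log2 scale). With TPM rescaling and with the replicate block, 7 genes of the list were higher and 1 lower. The haem-degrading Hmox1 thus was lower while the first enzyme of synthesis was higher.

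Hmox1, Fth1, Ftl1 and Slc40a1 are known targets of the oxidative stress regulator NRF2. A list of 15 others, all tested, holds NRF2 targets together with Nfe2l2, the gene of NRF2, and Keap1, the gene of its repressor. Of these 15 genes, 3 were higher and 4 lower at 100 against 0 µM, with a median of -0.04. G6pdx, the first enzyme of the pentose phosphate pathway, rose from 121 ± 2.62 to 185 ± 9.94 FPKM (SD, n = 3; limma adjusted p = 4.37e-05), and Gclc, of glutathione synthesis, fell from 22.7 ± 1.29 to 17.5 ± 0.246 FPKM (limma adjusted p = 0.000847). Slc7a11, the cystine importer, and the exporter Abcc1 fell by 0.27 and 0.22 on the log2 scale, and Nqo1, a classic NRF2 target, fell by 0.61 (limma adjusted p = 0.0191). Nqo1 was no longer called with no filter on low values, without the second 0 µM library, or without the first or the second 100 µM library. Srxn1 and Keap1 were the other higher genes, at 0.12 and 0.19. Neither was called after TPM rescaling, with the authors' factor removed, or without the first 0 µM, the third 0 µM or the second 100 µM library. Srxn1 was also not called with quantile normalization, the replicate block, voom or without the second 0 µM library, and Keap1 not without the first 100 µM library. After TPM rescaling 1 gene of the list was higher and 5 were lower.

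Epas1, which encodes the hypoxia factor HIF-2α and whose mRNA is known for an iron-responsive element, held no match to the motif here. It fell from 35.4 ± 0.944 FPKM at 0 µM to 31.1 ± 0.302 at 100 µM (SD, n = 3; limma adjusted p = 0.00585). Among the 10 genes, those with a match in the 5′ untranslated region were Fth1 and Slc40a1, which were lower at 100 µM, and Ftl1, which did not pass the test.

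The depth behind these values was similar across libraries, with 14019672 to 17094467 reads per library as rebuilt from the table. The deposited scaling differed from the read total by a factor of 0.969 to 1.03, the 100 µM libraries being lowest. Under the deposited scaling 2314 genes were higher and 1965 lower at 100 against 0 µM, and under TPM 1630 and 2633, and without the authors' factor 1731 and 2658. At 100 against 50 µM the numbers were 1663 and 1510 as deposited, 1060 and 2031 under TPM and 1102 and 2180 without the factor. For the slope on dose they were 2156 and 1649, 1522 and 2263, and 1619 and 2223. The 6 called genes kept their call at 100 against 0 µM under TPM and without the factor.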

How the data were processed

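RNA of 9 libraries was sequenced, 3 at each alginate dose. The authors deposited 1 table of FPKM values for 41761 genes, which already carried a scaling factor per library. The aligner, the counter and how either treated strand and reads with several fits are not given in the labels. Builds GRCm38 and mm10 appear in the submitters' processing notes, but the table's gene identifiers and positions belong to the C57BL/6NJ strain. Each value times gene length was a whole multiple of what 1 read is worth, within 0.01 read, for 100% of values, so reads were rebuilt.

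On the log2(FPKM + 1) scale, limma 3.58.1 (R 4.3.3) fitted 1 mean per dose to all 9 libraries, and its moderated variances were allowed a trend on expression. The 12635 genes that reached 1 FPKM in 3 or more libraries were tested, and a call is a Benjamini-Hochberg adjusted p, over all of these genes, below 0.05. A second fit used dose as a number. Fold changes of genes with low values are understated on this scale. Ratios were compared by a two-sided exact permutation test. The fit was tested on simulated data.

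The 10 genes and all lists were chosen with earlier results of these data known. Of each pathway list, up to 4 genes with the smallest p among those called at 100 against 0 µM are named. Slc25a37, Abcg2, Nqo1, Srxn1, Keap1, Ccl6, Fbxl5 and genes named beside marker counts were chosen after their values were seen. For likeness, the 3 protein-coding genes with the highest Pearson r were taken. Listed genes without a row, Ncoa4 among them, are not analysed here. Some results that met these rules are not reported here.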

Additional observations from a re-analysis of the deposited data

How the results depend on the processing

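Of the 10 genes, Tfrc, Hmox1, Cp and Steap4 kept their direction and call in 21 of 21 alternatives at 100 against 0 µM and at 100 against 50 µM, and Slc40a1 in 20 of 20, since it left the test at 5 FPKM or more in 3 libraries. Fth1 was called in 19 of 21 and 18 of 21. The exceptions were the fit with no filter on low values, quantile normalization, which sets the top-ranked gene to the same value in every library, and, at 100 against 50 µM, leaving out the first 100 µM library. At 50 against 0 µM none of the 10 was called in any alternative.

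The slope on dose gave 1 higher gene in place of 2 with no filter, quantile normalization, TPM rescaling and the replicate block, and 1 to 2 when a library was left out. With no filter it gave 1 lower gene in place of 3, with TPM rescaling and voom 4, and 2 to 4 when a library was left out. Above the midpoint stood 1 gene with quantile normalization, 2 with TPM rescaling, 2 with voom and 1 with the authors' factor removed, which was added after seeing the data. Below it stood 1 gene at the 5 FPKM filter and 1 with voom. With FPKM + 1 the Slc40a1 to Tfrc log2 ratio differed by -0.836 at 100 against 50 µM. The cause of these differences was not tested.

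Signs turned for differences that never passed. Ireb2 at 100 against 0 µM was -0.0167 with quantile normalization, -0.0218 with TPM and -0.0160 with the factor removed. Hmox1 at 50 against 0 µM was -0.0130 with quantile normalization. At 100 against 50 µM, Ftl1 was -0.00305 with quantile normalization, -0.0220 with TPM and -0.0280 with the factor removed, and Slc11a2 was -0.0219 and -0.0275 with the last of these. Leaving out 1 library gave ranges of -0.0357 to 0.0101 for Slc11a2 at 100 against 0 µM, -0.0170 to 0.0993 for Trf, -0.0148 to 0.0872 for Hmox1 and -0.0640 to 0.0508 for Ireb2 at 50 against 0 µM, and -0.0232 to 0.129 for Ftl1 at 100 against 50 µM.

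Over all genes, 45 were higher and 55 lower at 50 against 0 µM, but 0 and 0 with the replicate block, without the variance trend and with only the 2 doses compared, 6 and 6 with no filter, 101 and 107 at the 5 FPKM filter, and 144 and 193 with voom. They were also 0 and 0 without the first or the second 0 µM or the second 50 µM library, 1 and 0 without the third 0 µM library, 9 and 33 and 8 and 5 without the first and the third 50 µM library, and 27 and 26 without the second 100 µM library. At the midpoint, 125 and 63 became 3 and 4 with the block, 28 and 12 without the trend, 1 and 1 with no filter, 261 and 51 with TPM, 262 and 53 with the factor removed and 442 and 254 with voom, 0 and 0 without the first or the third 0 µM library, 30 and 16 without the second, 1 and 0 and 1 and 2 without the second and the third 50 µM library, and 3 and 3 and 0 and 1 without the second and the third 100 µM library. The labels number the libraries of each dose alike, but same-numbered libraries did not deviate together (r from -0.0941 to 0.0412 over 9 pairs, 0 above 0.1), so the numbers were not taken as a pairing. The block changed no call of the 10 genes between doses. For Trf, at 59 reads in its lowest library, counting error limits what can be told.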
